A study of Mus musculus with 18 samples.

Results

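The glucuronosyltransferase and sulfotransferase genes of the mouse were compared between the livers of *Rps2*-A226Y mice and Cre-expressing wild-type (WT) mice. Every gene whose symbol names a member of the Ugt1, Ugt2, Ugt3 or Sult families was taken, and pseudogenes were left out. This gave 41 members of the 22524 genes in the deposited counts, of which 20 were *Ugt* genes and 21 were *Sult* genes. Of these, 33 had enough counts to be tested, namely 18 *Ugt* and 15 *Sult* genes.

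RNA-seq libraries had been made from liver tissue of 10 A226Y and 8 WT mice, with 1 library per mouse. All were female mice labelled as C57BL/6 and aged 15 months, and the WT mice carried the CMV-Cre transgene as well, which expresses Cre recombinase in all tissues. The A226Y mice were heterozygous for an *Rps2* knock-in allele, encoding a ribosomal protein of the small subunit with an alanine changed to tyrosine, that stays silent until Cre removes a stop cassette. The allele was made in 129/Sv embryonic stem cells and the line was backcrossed to C57BL/6. The removal was incomplete, so each A226Y liver was a mosaic of cells that make the mutant protein and cells with 1 silent *Rps2* allele. Effects of the mutant protein and of the silent allele therefore cannot be told apart in these counts. The study compared mice with the silent allele alone with their own wild types. It reported few changed genes there, with very little overlap with those of the A226Y mice. Such mice are not among the libraries used here. *Rps2* itself was measured at 46.9 to 83.0 CPM (read counts divided by library size, with TMM scaling) in the A226Y mice and at 104 to 143 CPM in the WT mice, so the genotypes did not overlap. Its log2 fold change was -0.73 ± 0.11 (SE, adjusted p = 7.72e-04).

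Both enzyme families carry out conjugation, in which a polar group is added to a hormone, bile acid, drug or waste product so that it can leave the body in bile or urine. The UDP-glucuronosyltransferases (UGT) sit in the endoplasmic reticulum and transfer glucuronic acid from UDP-glucuronic acid, while cytosolic sulfotransferases (SULT) transfer sulfate from the donor PAPS. The liver is a main site of both, and *Ugt1a1*, which conjugates bilirubin, is the best known member.

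The 9 *Ugt1a* genes need a word on sequence before their counts can be read. They lie in 1 cluster on chromosome 1 (GRCm38, chr1:88055388-88220002, forward strand), and each has a first exon of its own joined to the same exons 2 to 5. The shared exons span chr1:88215044-88218997 and hold 1311 bases. The sequences below show the junction for 5 first exons, read from the GENCODE transcripts. They are given because the part in capitals is the same in every *Ugt1a* gene, so that its reads cannot be given to 1 of them. The last 15 bases of exon 1 are in lower case and the first 15 bases of exon 2 are in capitals.
Ugt1a1: aagcccctatcccagGAATTTGAAGCCTAT
Ugt1a9: aagtcactttccaagGAATTTGAAGCCTAT
Ugt1a5: aagcccctctctcagGAATTTGAAGCCTAT
Ugt1a6a: ggaaagctgactcagGAATTTGAAGCCTAT
Ugt1a10: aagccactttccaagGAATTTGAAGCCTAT
In these 30 bases, *Ugt1a6b* was identical to *Ugt1a6a*, *Ugt1a2* to *Ugt1a5*, and both *Ugt1a7c* and *Ugt1a8* to *Ugt1a10*.

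Among the 33 tested members, 5 were lower in the A226Y mice and 0 were higher at an adjusted p under 0.05 in edgeR's quasi-likelihood test. The lower genes were *Sult2a8*, *Sult5a1*, *Ugt3a2*, *Sult1c2* and *Ugt2b37*. They made up 15.2% of the tested members, whereas 7.03% of all 13353 tested genes were called lower and 7.27% higher. At an unadjusted p under 0.05, 16 members were lower and 0 higher, against 14.7% of all genes lower and 14.9% higher, but 8 of those 16 were *Ugt1a* genes that share their reads. The fold change was negative for 27 of 33 members, 9 of them the *Ugt1a* genes, and for 51% of all tested genes. Its median over the members was -0.20 on the log2 scale, and -0.00 over all tested genes. For no member did the CPM of the 2 genotypes fail to overlap, which 0.637% of all tested genes did.

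**Figure D1:**
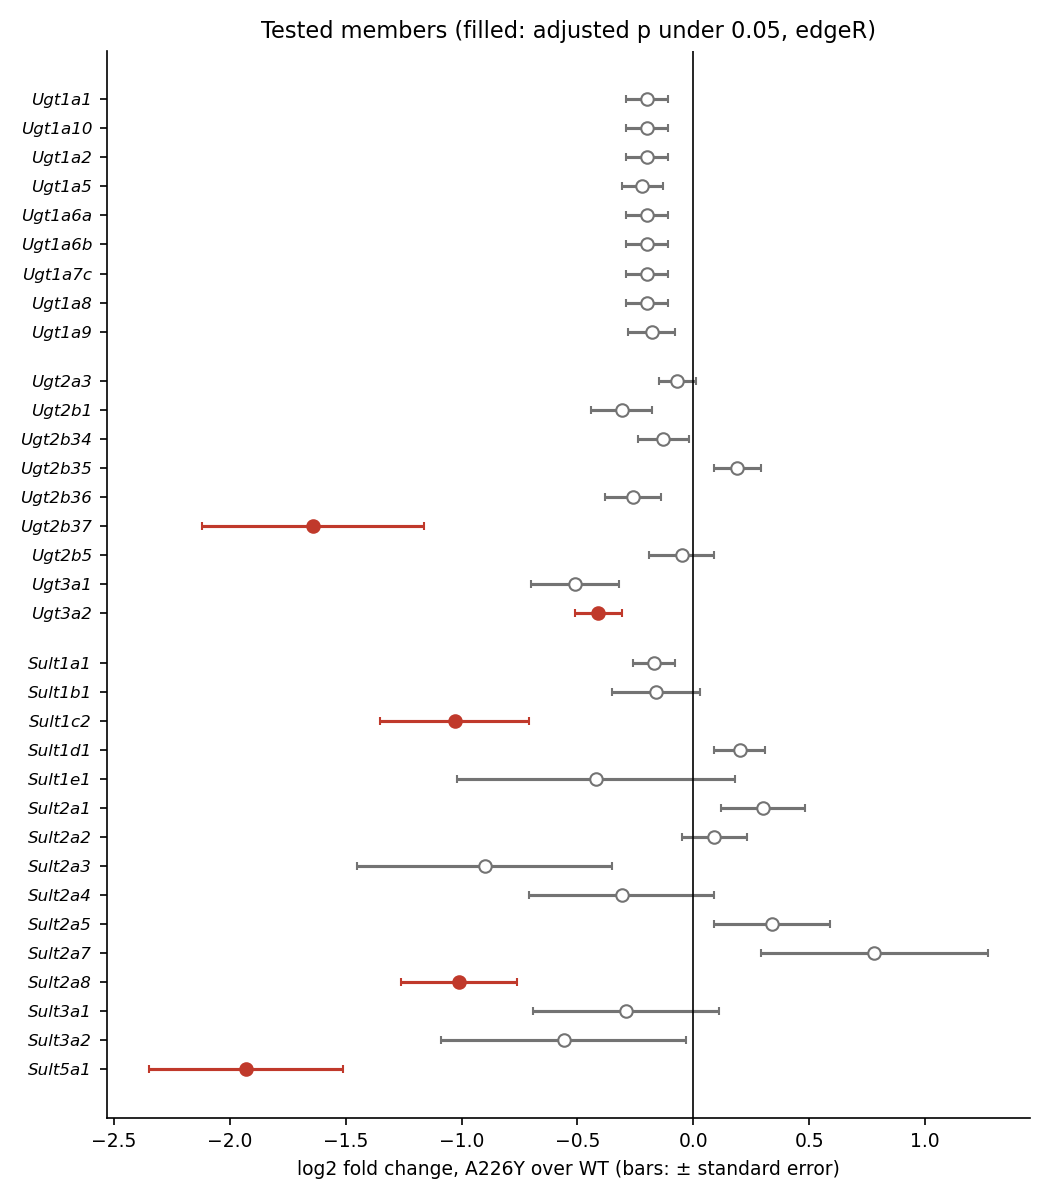
Log2 fold change (A226Y over WT) of the 33 tested members, grouped into Ugt1a, Ugt2 and Ugt3, and Sult genes, with bars of 1 standard error. Filled red points mark the 5 genes with an adjusted p under 0.05, all to the left of 0, and the 9 Ugt1a genes lie between -0.22 and -0.18.

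*Sult2a8*, a sulfotransferase of bile acids (chr7:14410686-14446769, reverse strand), had the clearest separation between the genotypes among the 5. Its level was lowest at 30.4 CPM, with a median of 175 and a highest value of 231 CPM, in the A226Y mice, and ran from 193 over a median of 317 to 395 CPM in the WT mice. Thus 9 of 10 A226Y mice were below every WT mouse, and 7 of 8 WT mice were above every A226Y mouse. In the mean, A226Y mice reached 153 ± 56.9 CPM (n = 10, SD) and WT mice 308 ± 73.7 CPM (n = 8, SD). *Sult2a8* fell by 1.01 ± 0.25 on the log2 scale (SE, adjusted p = 0.0122, two-sided exact permutation p = 3.43e-04). Leaving out any 1 mouse kept the log2 fold change between -1.09 and -0.88, with an adjusted p of at most 0.0285. None of its 50-base stretches occurs in another member, and 1.72% of them occur in any other gene.

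*Sult5a1* (chr8:123140192-123158315, reverse strand) was a gene of low level with the largest fold change of the 5. Its CPM in A226Y mice was 0.527 at the lowest, 1.17 at the median and 4.53 at the highest, and the corresponding values in WT mice were 1.16, 5.97 and 13.1. All 10 A226Y mice were below the WT mean of 5.80 CPM, 5 of 8 WT mice were above every A226Y mouse, and the other WT mice overlapped with the A226Y range. *Sult5a1* fell by 1.93 ± 0.42 on the log2 scale (SE, adjusted p = 0.00622, exact permutation p = 0.00416), and the highest adjusted p without 1 mouse was 0.0172.

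*Ugt3a2* (chr15:9335550-9370955, forward strand) belongs to the UGT3 branch, whose enzymes are known for using sugars other than glucuronic acid. The A226Y mice had 221, 329 and 404 CPM as their lowest, median and highest values, against 356, 427 and 545 CPM in the WT mice. The ranges overlapped, with 7 of 10 A226Y mice below every WT mouse. The log2 fold change was -0.41 ± 0.10 (SE, adjusted p = 0.0142, exact permutation p = 8.46e-04). Its neighbour *Ugt3a1* had 19.2, 41.9 and 62.6 CPM in the A226Y mice and 48.2, 66.1 and 70.6 CPM in the WT mice. With a log2 fold change of -0.51 ± 0.19, *Ugt3a1* missed the threshold (SE, adjusted p = 0.0691). It passed with DESeq2 (adjusted p = 0.0431), limma-voom (0.0479) and the GC offset (0.0460), and without A226Y mouse 3, 5 or 22 or WT mouse 6. When the counts of both genes were added, the Ugt3a cluster fell by 0.42 ± 0.11 on the log2 scale (SE, adjusted p = 0.0159). In that fit, with the genes of each cluster added, 7.13% of all features were called lower.

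*Sult1c2* (chr17:53829637-53846339, reverse strand), on the chromosome that also carries *Rps2*, ranged from 1.06 to 8.52 CPM with a median of 5.82 in A226Y mice, and from 4.86 to 20.2 CPM with a median of 9.20 in WT mice. The ranges overlapped, although all 10 A226Y mice were below the WT mean of 10.9 CPM. The log2 fold change was -1.03 ± 0.32 (SE, adjusted p = 0.0352, exact permutation p = 0.0104). The *Sult1c2* call was lost when A226Y mouse 7, 15, 18 or 32 or WT mouse 13, 21 or 24 was left out, with an adjusted p of up to 0.0869 without WT mouse 21. It was also lost with an offset for transcript length (adjusted p = 0.0599).

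*Ugt2b37*, of the UGT2B group that conjugates steroids and bile acids (chr5:87240493-87254804, reverse strand), was near the limit of detection. Its CPM ran from 0.243 over a median of 0.826 to 1.43 in A226Y mice and from 0.479 over a median of 1.60 to 9.42 in WT mice. Only 4 of 8 WT mice were above every A226Y mouse, and WT mouse 13 alone set the upper end. The log2 fold change was -1.64 ± 0.48 (SE, adjusted p = 0.0276, exact permutation p = 0.0381). Without WT mouse 13 the *Ugt2b37* fold change was -0.87 with an adjusted p of 0.114, and limma-voom gave an adjusted p of 0.125. In the sequences, 18.3% of its 50-base stretches occur in another member, 15.2% in *Ugt2b5*. How reads from such stretches were counted is not given in the sources used here. *Ugt2b38*, with 34.1% of its stretches in *Ugt2b5*, had at most 5 counts in a mouse, where *Ugt2b5* had at least 8576. Reads that fit both of these genes had thus largely not been counted for both.

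**Figure D2:**
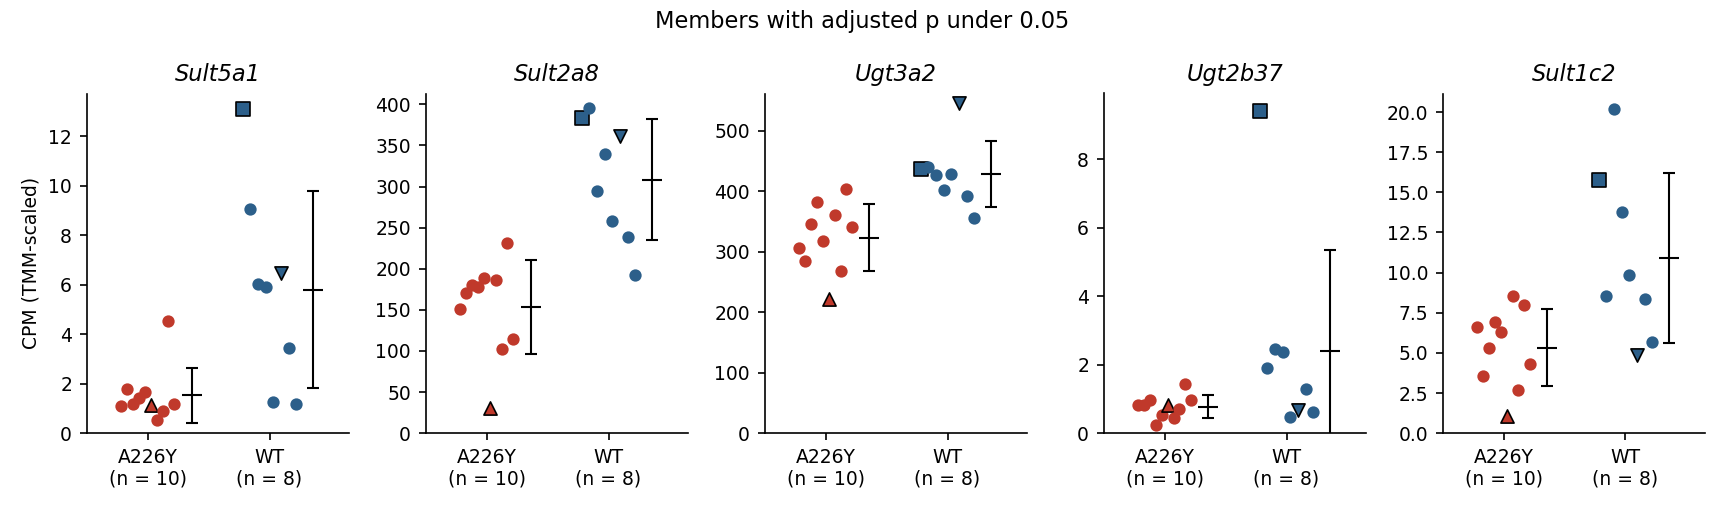
CPM in each mouse for the 5 genes that passed the test, with the mean and SD beside the points (bars end at 0). A226Y mouse 29 is an upright triangle, WT mouse 33 an inverted triangle and WT mouse 13 a square, and the square sets the WT maximum for Sult5a1 and Ugt2b37.

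These calls depended on the model. When 4 surrogate variables estimated from the counts were added, 0.157% of all genes were called lower in place of 7.03%, and 1 of the 5 members kept its call, *Sult2a8*, with a log2 fold change of -0.50 and an adjusted p of 0.0444. The log2 fold changes of the other 4 were -0.28 for *Sult5a1*, -0.18 for *Ugt3a2*, -0.37 for *Sult1c2* and -0.45 for *Ugt2b37*. In that model *Sult2a7* was called higher (log2 fold change 2.45, adjusted p = 0.0317).

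A pair of libraries stood apart from the others, A226Y mouse 29 and WT mouse 33, with median correlations to all other libraries of 0.964 and 0.968. Mouse 29 had the lowest A226Y level of *Sult2a8*, *Ugt3a2* and *Sult1c2*, the lowest hepatocyte marker sum (74937 CPM over 7 markers, against up to 146212 in the A226Y mice) and the highest sum of the 7 Kupffer cell markers (710 CPM, against a lowest of 208). Mouse 33 had the highest lymphocyte marker sum (661 CPM over 7 markers, against a lowest of 48.2 CPM in the WT mice). *Ighm* alone gave 643 CPM of it. Mouse 33 also had the highest hepatocyte (179133 CPM) and erythroid (764 CPM over 5 markers) sums of the WT mice. *Alb* made up most of both hepatocyte sums, at 48039 CPM in mouse 29 and 144015 CPM in mouse 33. Within that list, mouse 29 also had the lowest A226Y level of *Ttr* but the highest of *Fgb*. Mouse 33 had the highest WT levels of *Apoa1* and *Fgb* but the lowest of *Ttr*. Of these lists, 2 of 7 hepatocyte markers were called higher, 1 of 7 Kupffer markers (*Clec4f*) lower and 0 of 7 lymphocyte and 0 of 5 erythroid markers either way. In the stellate cell and fibroblast list, 1 of 7 was called higher (*Hgf*) and 2 lower (*Col1a1* and *Col3a1*). These counts stand against 7.27% of all tested genes higher and 7.03% lower. Without both mice, 6 members were lower and 0 higher, with 9.13% of all tested genes lower, and *Sult2a8* had a log2 fold change of -0.85 (adjusted p = 0.00339). Of 9 kidney, gut and pancreas markers, 5 were under 10 counts in every mouse, while *Lgals4* was at a mean of 18.2 CPM in A226Y and 16.6 CPM in WT mice and *Cela1* at 3.93 and 4.42 CPM. In whole liver, fewer cells of a type and less RNA per cell cannot be told apart.

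The deposited counts of the 9 *Ugt1a* genes were nearly the same number 9 times over. In every mouse *Ugt1a2*, *Ugt1a8* and *Ugt1a10* lay within 25 counts of each other, and the largest *Ugt1a* count was at most 138% of the lowest. Reads of the shared exons had thus been counted for every gene. *Ugt1a1* had 1113, 1568 and 1837 CPM as its lowest, median and highest values in the A226Y mice, and 1476, 1685 and 2008 CPM in the WT mice. The ranges overlapped. For *Ugt1a9* these values were 822, 1254 and 1492 CPM against 1185, 1314 and 1568 CPM, and for *Ugt1a5* 833, 1197 and 1440 CPM against 1179, 1315 and 1554 CPM. *Ugt1a2*, *Ugt1a8* and *Ugt1a10* ran from 807 over a median of 1169 to at most 1407 CPM in A226Y mice and from 1143 to 1508 CPM in WT mice. These levels all hold the same shared reads. *Ugt1a6b* (818, 1182 and 1422 CPM against 1160, 1285 and 1525 CPM) and *Ugt1a7c* (820, 1184 and 1421 CPM against 1162, 1287 and 1524 CPM) were alike. Over the 9 genes the log2 fold change was between -0.22 and -0.18 and the adjusted p between 0.121 and 0.231, so that none passed the test.

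To see past the shared exons, the lowest of the 9 counts in each mouse was taken as the reads of exons 2 to 5, and what each gene had above it as its own part. This split was chosen after the data were seen. For *Ugt1a1*, *Ugt1a9* and *Ugt1a5* the own part covers the gene's first exon, which in *Ugt1a1* an antisense gene overlaps. For *Ugt1a6a*, *Ugt1a6b* and *Ugt1a7c* it is a mixture, because their annotated transcripts share first exon sequence with each other, and the annotated last exon of *Ugt1a7c* runs past the shared exon 5, so that its part also holds 3′ reads. For *Ugt1a6b*, 79.8% of the 50-base stretches occur in another member, against 58.2% for *Ugt1a1*, and both shares include the shared exons. With the split, 7.10% of all features tested were called lower.

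The first exon of *Ugt1a5* was lower in A226Y mice, that of *Ugt1a1* missed the threshold, and that of *Ugt1a9* had no clear direction. For *Ugt1a5* the A226Y mice had 18.4, 26.1 and 37.1 CPM as lowest, median and highest values, and the WT mice had 22.6, 43.8 and 66.2 CPM. All 10 A226Y mice were below the WT mean and 6 of 8 WT mice were above every A226Y mouse. This exon fell by 0.68 ± 0.15 on the log2 scale (SE, adjusted p = 0.00686, exact permutation p = 0.0021), and the adjusted p was at most 0.0158 without any 1 mouse, but 0.116 with surrogate variables, where the log2 fold change was -0.67. The *Ugt1a1* first exon averaged 381 ± 52.9 CPM over 10 A226Y mice (SD) against 436 ± 59.9 CPM over 8 WT mice (SD), with a log2 fold change of -0.19 ± 0.10 (SE, adjusted p = 0.178). For *Ugt1a9*, whose enzyme conjugates phenols, the first exon ranged from 14.7 to 117 CPM in A226Y and from 16.1 to 121 CPM in WT mice, and its log2 fold change was 0.15 ± 0.34 (SE, adjusted p = 0.802). The shared exons had a log2 fold change of -0.20 ± 0.09 (SE, adjusted p = 0.157).

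The own parts of the phenol-conjugating *Ugt1a6a* and *Ugt1a6b* and of *Ugt1a7c* fell by 0.28, 0.33 and 0.32 on the log2 scale, with adjusted p-values of 0.0125, 0.0245 and 0.00747. *Ugt1a6a* had 18.7 to 27.9 CPM in A226Y and 26.3 to 30.5 CPM in WT mice, with 8 of 10 A226Y mice below every WT mouse. All 3 calls were lost with surrogate variables (log2 fold changes of -0.24, -0.16 and -0.26 and adjusted p of 0.165, 0.397 and 0.188 in the same order). The *Ugt1a6b* call was also lost without WT mouse 33 (adjusted p = 0.0507) and without both A226Y mouse 29 and WT mouse 33, where the own part of Ugt1a6b had an adjusted p of 0.0567. Since these parts share sequence, they are not 3 separate results. The own parts of *Ugt1a2* and *Ugt1a8* held 0 to 2 counts and that of *Ugt1a10* held 3 to 25 counts per mouse. The split sets the lower of *Ugt1a2* and *Ugt1a8* to 0 in each mouse, and the other lay within 2 counts of it. Reads of their first exons were therefore near 0, unless both genes held the same number of them. An antisense gene overlaps the first exons of *Ugt1a1* and *Ugt1a10*, and as the strand setting of the counting is not given in the sources used here, its reads cannot be told apart from theirs.

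**Figure D3:**
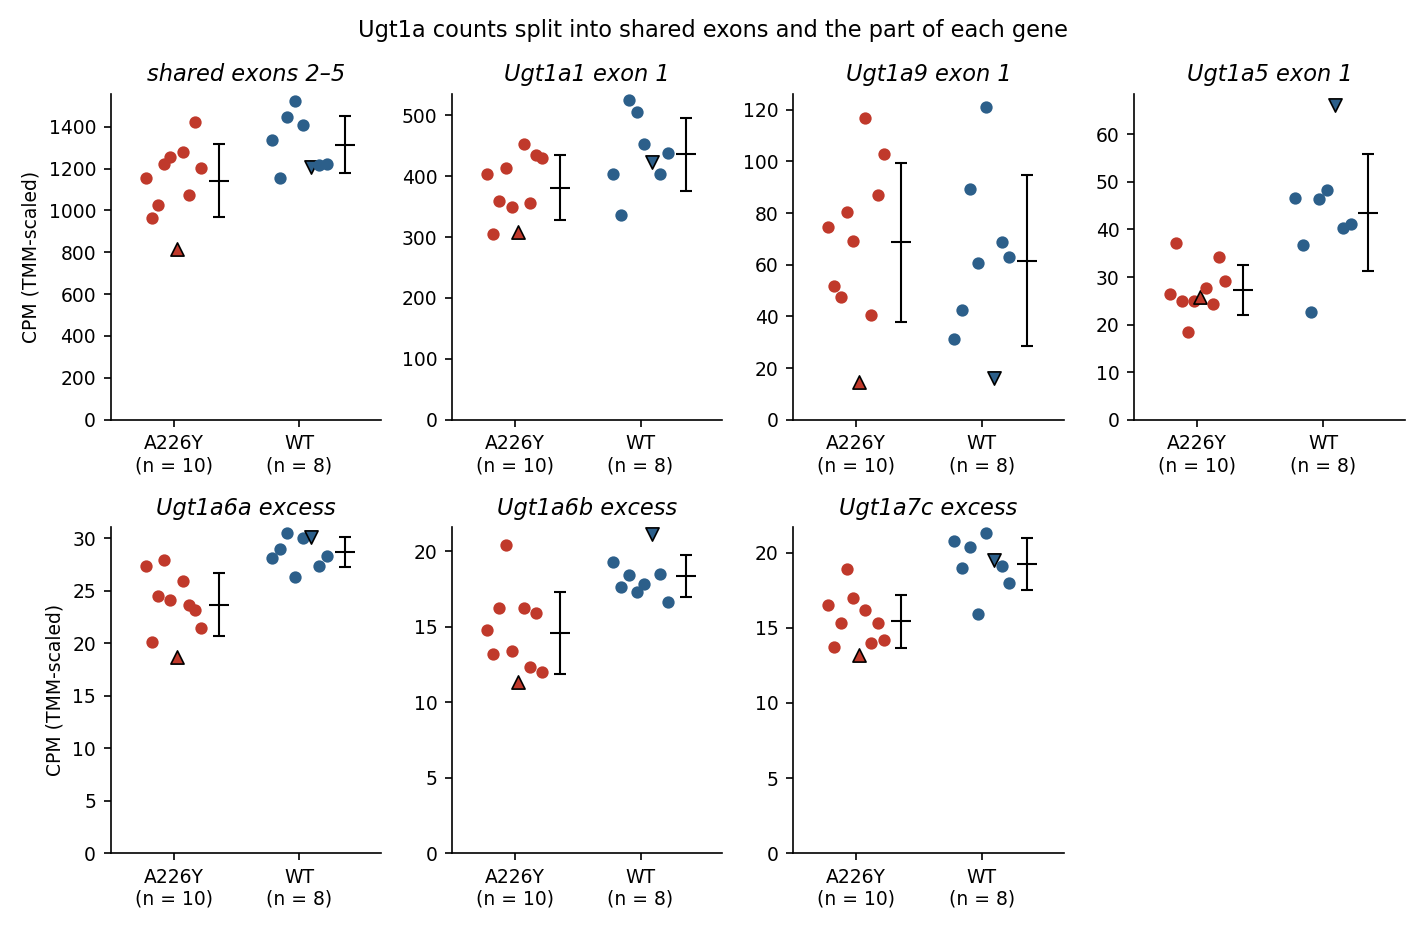
CPM in each mouse for the shared exons 2 to 5 and for the part of the count that each Ugt1a gene has above them, with the mean and SD. A226Y mouse 29 is an upright triangle and WT mouse 33 an inverted one. The Ugt1a5 first exon is above 37.1 CPM, the A226Y maximum, in 6 of 8 WT mice.

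Of the first exon reads of *Ugt1a1*, *Ugt1a9* and *Ugt1a5* together, *Ugt1a1* held 80.4% ± 3.97 (SD, n = 10) in A226Y and 80.7% ± 3.59 (SD, n = 8) in WT mice. *Ugt1a9* held 13.8% ± 4.49 and 11% ± 4.9, and *Ugt1a5* 5.88% ± 1.59 and 8.25% ± 2.65, in the same order. *Ugt1a1* was thus the main one of these 3 first exons in both genotypes.

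Apart from *Ugt2b37*, none of the tested *Ugt2* genes, which lie on chromosome 5, passed the test. *Ugt2b1*, which conjugates steroids, had 102, 201 and 247 CPM as its lowest, median and highest values in A226Y mice, and 205, 238 and 283 CPM in WT mice. Its log2 fold change was -0.31 ± 0.13 (SE, adjusted p = 0.110). It passed with an offset for GC content and without mice 29 and 33 (log2 fold change -0.26, adjusted p = 0.0479). For *Ugt2b36*, *Ugt2b34*, *Ugt2b5* and *Ugt2a3* the log2 fold changes were -0.26, -0.13, -0.05 and -0.07, with adjusted p-values between 0.158 and 0.866. Of these, *Ugt2b36* passed with the GC offset (log2 fold change -0.35, adjusted p = 0.0432). *Ugt2b35* was the only tested *Ugt* gene with a positive value in the deposited counts, 0.19 ± 0.10 (SE, adjusted p = 0.216). The 7 Ugt2b genes added together had a log2 fold change of -0.14 ± 0.11 (SE, adjusted p = 0.422).

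The *Sult2a* genes, which sulfate steroids and bile acids, lie in a cluster on chromosome 7 and differed in direction. The fold changes of *Sult2a1*, *Sult2a2*, *Sult2a5* and *Sult2a7* were positive and those of *Sult2a3*, *Sult2a4* and *Sult2a8* negative, although *Sult2a3* and *Sult2a4* turned positive with surrogate variables, and *Sult2a8* alone passed the test. *Sult2a1*, the main hydroxysteroid sulfotransferase, had 321, 753 and 1123 CPM as lowest, median and highest values in A226Y mice and 468, 632 and 873 CPM in WT mice, with a log2 fold change of 0.30 ± 0.18 (SE, adjusted p = 0.266). Its lowest A226Y mouse was mouse 29, and without it *Sult2a1* rose by 0.39 (adjusted p = 0.0462). Without mouse 29 and WT mouse 33 together, *Sult2a1* was at 0.34 and did not pass (adjusted p = 0.0753).

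*Sult2a2* had 133, 273 and 341 CPM in A226Y and 185, 245 and 294 CPM in WT mice as lowest, median and highest values (log2 fold change 0.09 ± 0.14, SE, adjusted p = 0.718). Of its 50-base stretches, 62.1% occur in another member, 41.3% in *Sult2a1*. How reads from such stretches were counted is not given, so the levels of these genes may not be fully separate measurements. *Sult2a3* spread from 3.56 to 112 CPM in A226Y and from 20 to 201 CPM in WT mice (log2 fold change -0.90 ± 0.55, SE, adjusted p = 0.278). *Sult2a7* spread from 11.6 to 157 CPM and from 6.35 to 127 CPM (log2 fold change 0.78 ± 0.49, SE, adjusted p = 0.290). Both genes varied several-fold within each genotype. All 8 Sult2a genes added together averaged 1370 ± 372 CPM (n = 10, SD) and 1367 ± 262 CPM (n = 8, SD) in the A226Y and WT groups, for a log2 fold change of 0.00 ± 0.17 (SE, adjusted p = 0.994).

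**Figure D4:**
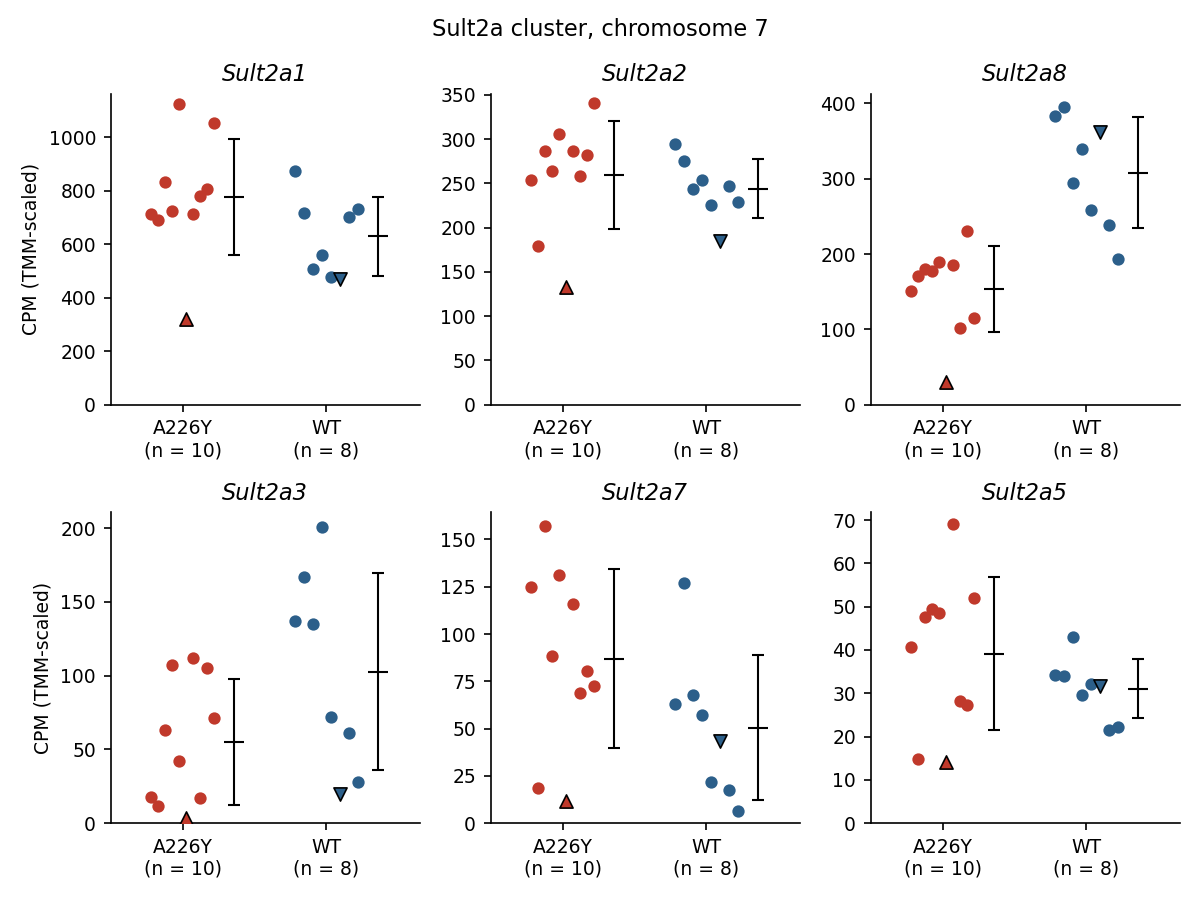
CPM in each mouse for 6 genes of the Sult2a cluster, each on its own axis from 0, with the mean and SD. A226Y mouse 29 (upright triangle) had the lowest A226Y value of all 6 genes, and 9 of 10 A226Y mice are below every WT mouse for Sult2a8.

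Outside this cluster, *Sult1a1*, which sulfates phenols, had 299 to 442 CPM in A226Y and 342 to 522 CPM in WT mice (log2 fold change -0.17 ± 0.09, SE, adjusted p = 0.201). *Sult1d1*, which sulfates catecholamines, was at 257 to 448 CPM and 254 to 380 CPM (log2 fold change 0.20 ± 0.11, SE, adjusted p = 0.224). *Sult1b1*, which sulfates thyroid hormone, had a log2 fold change of -0.16 ± 0.19 (SE, adjusted p = 0.605). None of the 3 passed.

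The oestrogen sulfotransferase *Sult1e1* was low, at 0.124, 1.71 and 5.52 CPM in A226Y mice and 0.612, 1.36 and 8.15 CPM in WT mice as lowest, median and highest values. Its log2 fold change was -0.42 ± 0.60 (SE, adjusted p = 0.679), and 0.07 without WT mouse 14, the highest of the WT mice. *Sult3a1*, which sulfates amines, had 4.41, 35.4 and 75.6 CPM in A226Y and 23.6, 39.3 and 81.8 CPM in WT mice (log2 fold change -0.29 ± 0.40, SE, adjusted p = 0.670). In *Sult3a2* and *Sult2a4* the fold changes were -0.56 and -0.31, with adjusted p-values of 0.505 and 0.645. The genotypes overlapped widely for all 4 genes.

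The 8 members that were not tested were *Sult2a6*, *Ugt2b38*, *Sult6b1*, *Sult2b1*, *Sult4a1*, *Ugt2a2*, *Sult6b2* and *Sult1c1*. *Sult2a6* reached at most 17 counts in a mouse and 129 counts in all 18 mice, and the next 5 genes had 6 to 40 counts in all. *Sult6b2* and *Sult1c1* had 0 counts in every mouse, which allows up to 3 counts per library, or 0.126 CPM in the shallowest and 0.0483 CPM in the deepest library.

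Levels between genes were compared per kb of annotated exon, in mean CPM per kb. The shared *Ugt1a* exons were at 871 ± 134 (SD, n = 10) in A226Y and 1002 ± 102 (SD, n = 8) in WT mice, and *Sult2a1* was the highest *Sult* gene at 760 ± 213 and 617 ± 144. The first exon of *Ugt1a1* followed at 418 ± 57.9 and 478 ± 65.6, then *Sult2a2* at 350 ± 82.3 and 329 ± 44.3. *Ugt2b36*, *Sult1a1* and *Ugt2b5* were within their spread of each other, at 247 to 265 in A226Y and 273 to 303 in WT mice. At the low end, *Sult5a1*, *Ugt2b37* and *Sult2a4* were under 1.4 in both genotypes.

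When the genes were taken whole, the 10 highest members were 8 *Ugt1a* genes, *Sult2a1* and *Sult2a2*. The *Ugt1a* levels, from 272 (*Ugt1a7c*) to 678 (*Ugt1a1*) in A226Y and from 313 to 779 in WT mice, include the shared exons each time. The order among *Ugt1a9*, *Ugt1a5*, *Ugt1a2*, *Ugt1a8*, *Ugt1a10* and *Ugt1a6b* lay within the SD and also follows the length of their annotated exons.

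**Figure D5:**
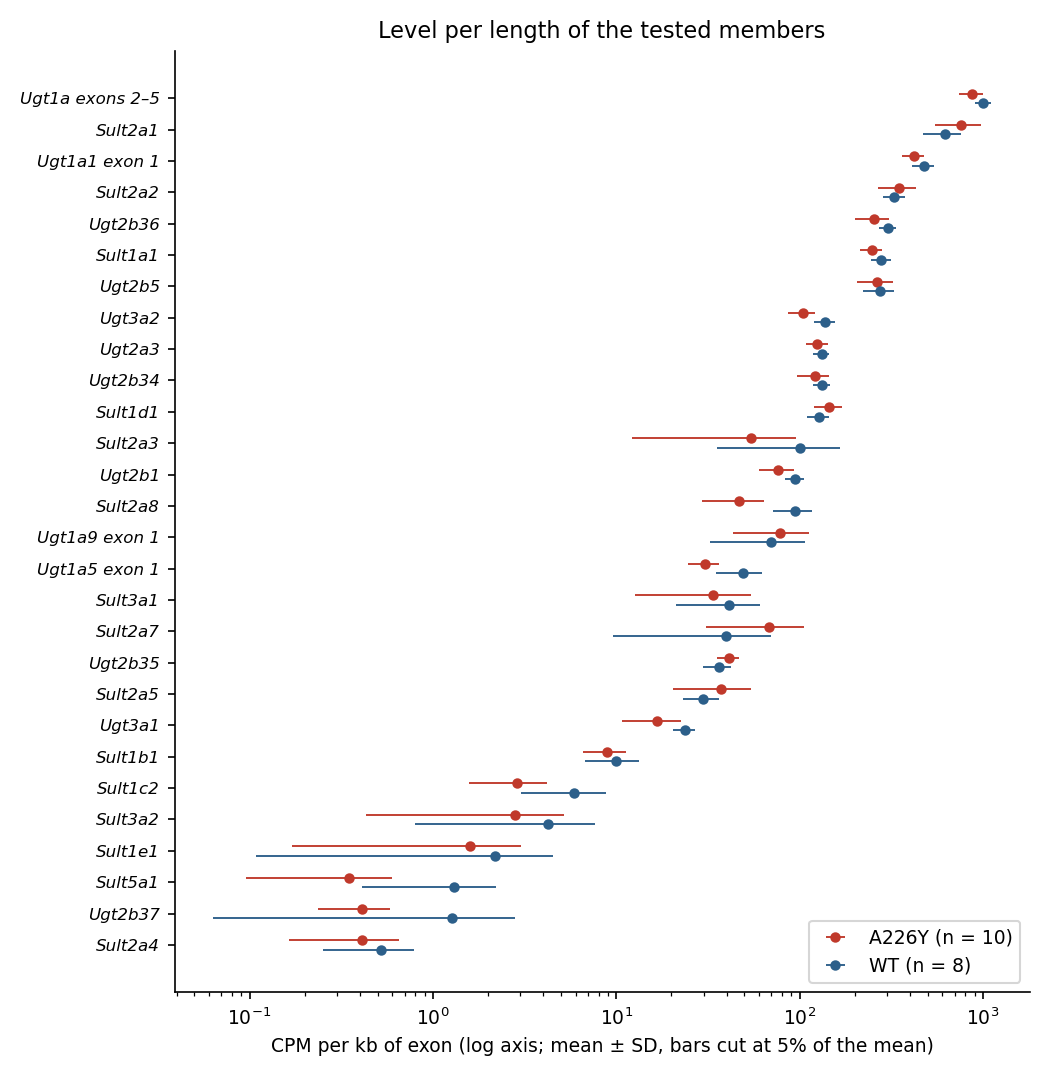
Mean level per kb of exon (CPM per kb, log axis) with SD for the tested members in 10 A226Y and 8 WT mice, with the Ugt1a cluster given as its shared exons and the first exons of Ugt1a1, Ugt1a9 and Ugt1a5. Levels run from 1002 for the shared Ugt1a exons in WT mice down to 0.348 for Sult5a1 in A226Y mice.

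The spread between mice of 1 genotype differed among the members. The coefficient of variation in WT mice was 9.73% to 11.1% for the *Ugt1a* genes, 10.6% for *Ugt2b36*, 12.8% for *Ugt3a2* and 19.3% for *Ugt2b5*, against a median of 13.8% over all tested genes. For *Sult2a3*, *Sult2a7* and *Sult3a1*, which were also well above the count limit, it was 64.9%, 75.8% and 48.3%. Among the tested members, *Ugt2b37* and *Sult1e1* had the highest values in WT mice, 123% and 109%, each at few counts, and without WT mouse 13 that of *Ugt2b37* was 60.7%. In A226Y mice *Sult1e1* (89.4%) and *Sult3a2* (84.5%) were the highest.

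The other genes of the conjugation pathway were read from 5 lists of donor synthesis and recycling, transport of conjugates, receptors and their index targets. Of 46 genes, 45 were found and tested. At an adjusted p under 0.05, 4 were higher and 6 lower in A226Y mice, where 7.27% of all tested genes were higher and 7.03% lower, with a median log2 fold change of -0.03 against -0.00 for all genes.

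For sulfation, 1 of 8 genes rose and 3 fell, against 7.27% and 7.03% of all tested genes. *Papss2*, which makes the sulfate donor PAPS, had 143, 187 and 231 CPM as lowest, median and highest values in A226Y mice and 155, 277 and 332 CPM in WT mice, and fell by 0.44 ± 0.14 on the log2 scale (SE, adjusted p = 0.0339). That call was lost without WT mouse 13, 14, 21, 24 or 33 or A226Y mouse 18, 22 or 32, with an adjusted p of up to 0.0779. It was also lost with the length offset (adjusted p = 0.0539) and without both A226Y mouse 29 and WT mouse 33 (adjusted p = 0.0680). *Slc35b2*, which carries PAPS into the Golgi, fell by 0.34 ± 0.09 (SE, adjusted p = 0.0159), with 7 of 10 A226Y mice below every WT mouse, and missed the threshold with the GC offset (adjusted p = 0.0830). *Slc26a1*, a sulfate transporter of the cell membrane, fell by 0.32 ± 0.09 (SE, adjusted p = 0.0242), with an adjusted p of 0.0570 without WT mouse 13 and 0.0587 without WT mouse 14. With the GC offset the adjusted p of *Slc26a1* was 0.0681. *Impad1*, the Golgi phosphatase that clears the used donor, was at 74.2 to 86.8 CPM in A226Y and 57.9 to 71.7 CPM in WT mice. The genotypes did not overlap for *Impad1*, and it rose by 0.31 ± 0.05 (SE, adjusted p = 0.00252, exact permutation p = 2.29e-05, the smallest that the 43758 divisions of the mice allow).

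For glucuronidation, 1 of 8 genes passed the test, against 14.3% of all tested genes. *Gusb*, the lysosomal enzyme that splits glucuronides, rose by 0.31 ± 0.09 (SE, adjusted p = 0.0276), with 45.6 ± 6.71 CPM (n = 10, SD) for A226Y against 36.9 ± 4.24 CPM (n = 8, SD) for WT mice. The *Gusb* call was lost without A226Y mouse 7 or 11 or WT mouse 13, 14 or 24 (adjusted p of up to 0.0647). *Ugdh*, which makes UDP-glucuronic acid, and *Ugp2*, which makes its precursor, had log2 fold changes of 0.05 ± 0.11 and -0.19 ± 0.15 (SE, adjusted p = 0.786 and 0.400).

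Among 6 transporters, *Slco1a4*, which takes up organic anions, was at 161 to 411 CPM in A226Y and 135 to 203 CPM in WT mice and rose by 0.77 ± 0.17 (SE, adjusted p = 0.00600). Of 12 receptors and regulators, *Nr1i3*, the receptor CAR, fell by 0.46 ± 0.14 (SE, adjusted p = 0.0321), from 427 to 710 CPM in WT to 202 to 494 CPM in A226Y mice. The *Nr1i3* call was lost without A226Y mouse 7, 11 or 15 or WT mouse 24, 28 or 33 (adjusted p of up to 0.0744), and with the GC offset (adjusted p = 0.0697). *Arnt*, the partner of the aryl hydrocarbon receptor, fell by 0.30 ± 0.07 (SE, adjusted p = 0.00766), with 9 of 10 A226Y mice below every WT mouse. *Nr1i2* (receptor PXR) and *Ahr* had log2 fold changes of 0.02 ± 0.08 and -0.08 ± 0.12 (SE, adjusted p = 0.883 and 0.683).

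The index targets of these receptors moved both ways. *Cyp2b10*, a classic target of CAR, was at 11.8 to 42.2 CPM in A226Y and 2.48 to 13.7 CPM in WT mice and rose by 1.45 ± 0.29 (SE, adjusted p = 0.00398). *Cyp1a2*, a target of the aryl hydrocarbon receptor, was at 110 to 320 CPM in A226Y and 262 to 843 CPM in WT mice and fell by 1.03 ± 0.22 (SE, adjusted p = 0.00601). The ranges overlapped for both, and the other 9 targets did not pass. All 10 calls of these 5 lists were lost with surrogate variables. The log2 fold changes then stayed near their size for *Arnt* (-0.28), *Nr1i3* (-0.41) and *Cyp1a2* (-0.84), and were smaller for *Cyp2b10* (0.95), *Slco1a4* (0.36), *Slc35b2* (-0.10), *Slc26a1* (-0.20), *Papss2* (-0.18), *Impad1* (0.18) and *Gusb* (0.14).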

How the data were processed

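Liver RNA of 18 mice had been sequenced as single reads by the authors, who deposited 1 table of raw read counts per gene and mouse. The submitters' processing notes name bcl2fastq, fastp, STAR, featureCounts, MultiQC and the build GRCm38, while the study's methods name other software, and the strand setting is not given in the sources used here. The deposited counts were whole numbers, and shared *Ugt1a* reads had been counted for each gene. Library totals were 23850565 to 62126131 counts (A226Y) and 25869192 to 34918732 counts (WT), and they set the counting error. The lowest chi-square per degree of freedom between 2 mice of 1 genotype was 19.7, so no 2 libraries of 1 genotype were duplicates. Pairs across the genotypes were not compared in this way.

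The labels name 1 animal per library and say nothing more of replication. Symbols and exon lengths came from GENCODE M21, which matched 22214 identifiers. Genes with at least 10 counts in 50% of the mice of 1 genotype were tested with edgeR 4.0.16 (R 4.3.3; TMM, quasi-likelihood, genotype as the only term), with Benjamini-Hochberg adjustment over 13353 genes. Standard errors were the log2 fold change over the root of F. Exact permutation tests used log2 CPM with a prior count of 2. The alternatives were DESeq2 1.42.0, limma-voom (limma 3.58.1), 4 surrogate variables (sva 3.50.0), RLE, upper quartile and no scaling, other filters, offsets for transcript length and GC content, and each mouse left out. The procedure was tested on simulated data.

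Members and gene lists were chosen with earlier results of these data known. Every member that passed the test, was among the 10 highest per kb, or was *Sult1e1*, *Sult2a1*, *Sult3a1*, *Ugt1a1* or *Ugt2b1* was described in full, the *Ugt1a* genes together where their counts were the same reads. From the 5 conjugation lists, the 10 genes of smallest p that passed were named, with *Ugdh*, *Ugp2*, *Papss2*, *Nr1i2*, *Nr1i3* and *Ahr*. Other genes named were chosen after their values were seen.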

Additional observations from a re-analysis of the deposited data

Results flagged for a closer look

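Values far from the rest of their group were looked for in 64 groups (each named member or own part in 1 genotype) with Dixon's ratio, the gap to the nearest mouse over the range of the group, both taken on log2 CPM. Chance gives about 1 such value in 20 groups, and 7 were found. A226Y mouse 29 was the lowest of its group for *Sult2a1* (321 CPM, next 689; ratio 0.609), *Sult2a8* (30.4 CPM, next 102; 0.595), *Ugt2b1* (102 CPM, next 169; 0.574), and the own parts of *Ugt1a10* (0.0890 CPM, next 0.271; 0.559) and *Ugt1a9* (14.7 CPM, next 40.7; 0.491). WT mouse 33 was the lowest of its group for *Ugt2b34* (427 CPM, next 569; ratio 0.736) and *Ugt2b5* (300 CPM, next 437; 0.547). On the CPM scale, added after the data were seen, 4 groups had such a value, namely WT mouse 33 for *Ugt2b34* (0.697) and *Ugt3a2* (0.555, the highest), WT mouse 13 for *Ugt2b37* (0.779, the highest) and A226Y mouse 5 for *Sult5a1* (0.686, the highest), so that *Ugt2b34* alone stood out on both scales. Mice 29 and 33 are the libraries that correlated least with the others, and the causes were not tested.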

How the results depend on the processing

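The count of members lower in A226Y was 5, and 1 with surrogate variables, 8 with a GC offset and 3 to 6 with 1 mouse left out (3 without WT mouse 13). The count of members higher in A226Y was 0, and 1 with surrogate variables and 0 to 1 with 1 mouse left out (1, *Sult2a1*, without A226Y mouse 29). The pathway genes higher in A226Y were 4, and 7 with DESeq2, 0 with surrogate variables and 3 to 7 with 1 mouse left out (7 without WT mouse 6). The pathway genes lower in A226Y were 6, and 0 with surrogate variables and 4 to 7 with 1 mouse left out (4 without WT mouse 13, 14, 24 or 33). Over all genes, 7.03% were lower, 6.05% with the GC offset and 0.157% with surrogate variables, and 1910 calls became 50 with surrogate variables, 2418 with DESeq2 and 1255 to 2560 with 1 mouse left out, and with library size alone 67.9% of calls were higher in place of 50.8%. With surrogate variables the log2 fold change was 0.01 for *Ugt2b5*, 0.09 for *Sult1b1*, 0.59 for *Sult2a4*, 0.40 for *Sult2a3*, 0.00 for *Ugp2*, -0.05 for *Nr1i2* and 0.10 for *Ahr*. With the length offset *Ugt2b5* was at 0.03 and *Ugt2a3* at 0.00, and with the GC offset *Ugdh* was at -0.01. Without A226Y mouse 29 and WT mouse 33 *Sult1b1* was at 0.02 and *Ahr* at 0.01. With 1 mouse left out, *Ugt2b5* (-0.13 to 0.02), *Sult1e1* (-0.74 to 0.07) and *Nr1i2* (-0.01 to 0.05) changed sign. The sum of a cluster gave 0.00 for the Sult2a genes, in place of negative values for *Sult2a8*, *Sult2a4* and *Sult2a3*, and -0.14 for the Ugt2b genes, in place of a positive value for *Ugt2b35*. The own part of *Ugt1a9* was at 0.15. Apart from the sums, which join several genes, the cause was not tested. No paired analysis was possible because the genotypes share no animal number. The 8 members that were not tested fell under the count filter, so the main fit did not assess a difference in them.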

Other observations

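Liver genes that differ between the sexes and between zones of the lobule were also read, since several members are known to follow both. Of 14 female-predominant genes, 0 were higher and 2 lower in A226Y mice, where 7.27% of all tested genes were higher and 7.03% lower. *Prlr*, the prolactin receptor, had a log2 fold change of -0.52 ± 0.10 (SE, adjusted p = 0.00309) and *A1bg* one of -2.57 ± 0.77 (SE, adjusted p = 0.0318). Of 12 male-predominant genes 8 were tested, with *Mup20* and *Cyp2d9* higher (log2 fold change 1.10 and 0.89, adjusted p = 0.0244 and 0.0281) and *Elovl3* and *Selenbp2* lower (-1.26 and -2.0, adjusted p = 0.0281 and 0.0130). The median of the tested genes was -0.41 in the female-predominant and -0.21 in the male-predominant list. *Cyp4a12a*, *Cyp4a12b* and *Hsd3b5* were under 10 counts in every mouse.

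Of 9 pericentral genes, *Rgn* (-0.90 ± 0.14, SE, adjusted p = 9.32e-04) and *Rhbg*, an ammonium transporter (-1.56 ± 0.31, SE, adjusted p = 0.00363), were lower and 0 were higher. The median of this list was -0.05, and *Oat* (0.13), *Slc1a2* (0.06), *Axin2* (0.07) and *Cyp27a1* (0.02) had positive values that did not pass. Of 9 periportal genes, *Sdsl* was higher (0.89, adjusted p = 0.00801) and *Cyp2f2* lower (-0.58, adjusted p = 0.0173). The same all-gene shares, 7.27% and 7.03%, apply to both lists. The sums of the pericentral list, 5232 to 11522 CPM in A226Y and 9092 to 14241 CPM in WT mice, overlapped. All of these genes were named after their values were seen.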
